A study of Mus musculus with 6 samples.

Results

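T cell checkpoint and costimulator genes outside the PD-1 and CTLA-4 axes were examined in whole lungs carrying 4T1 tumour cells. The set held 10 genes, which are Lag3, Havcr2, Tigit, Btla, Vsir, Icos, Cd200r1, Lgals9, Icosl and Cd200. All 10 were found by symbol and Ensembl identifier among the 35275 gene rows of the count tables, had a count in every library and passed the filter on low counts. 4T1 is a mammary carcinoma line from Balb/c mice. In the KO group (3 libraries) Balb/c hosts had received 250000 4T1 cells without PD-L1 through the tail vein, and in the WT group (3 libraries) the same number of unmodified 4T1 cells. Lungs of both groups were flushed with 20 mL of PBS and collected on day 7. KO therefore names the injected cells and not the hosts, whose own PD-L1 gene carries no labelled edit. The labels give neither the age or sex of the hosts nor the number of KO clones, and nothing says that each library is a separate animal, so the tests cover only the spread from library to library, which may be technical.

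T cells are restrained and helped by pairs of surface proteins beyond PD-1 and CTLA-4. LAG-3 binds MHC class II, TIM-3 (Havcr2) binds galectin-9 (Lgals9) among other ligands, TIGIT binds the poliovirus receptor family and BTLA binds the herpesvirus entry mediator, and each of these receptors lowers T cell activity. VISTA (Vsir) is carried by myeloid cells as well as T cells and also restrains T cells. ICOS on activated T cells meets its ligand (Icosl) on antigen-presenting cells and supports helper and regulatory T cells. CD200, found on endothelium, neurons and lymphocytes, engages CD200R1 on myeloid cells and dampens them.

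Total counts were 15410121, 15222408 and 16469780 in KO libraries 1 to 3 and 14711459, 16932114 and 15355747 in WT libraries 1 to 3, so that a count of 0 allows up to 0.177 to 0.204 CPM (counts scaled to the same library size, with TMM factors). Cd274, the gene for PD-L1, had 1514, 3013 and 4929 counts in the KO libraries, against 910, 912 and 1132 counts in the WT libraries. Its log2 difference, KO minus WT, was 1.65 ± 0.42 (SE) and did not pass the edgeR test described below (adjusted p = 0.161). The hosts' own cells still carry an intact gene and an edited allele can be transcribed, so Cd274 in a whole lung does not check the labels. Lung epithelial markers summed to 13724 to 17101 CPM in KO and 13396 to 14720 CPM in WT libraries, with none of the 8 at 0. The sum does not show each marker. Among the 8, Scgb1a1 had 1844, 3113 and 1313 CPM in KO and 402, 307 and 798 CPM in WT libraries. All its KO libraries were above all WT libraries, as for 10.3% of all tested genes. In RNA of a whole organ, more cells of a type and more RNA per cell cannot be told apart, nor can host and tumour RNA.

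None of the 10 genes passed the test between KO and WT lungs in either direction (edgeR quasi-likelihood test, Benjamini-Hochberg adjusted over 15191 genes at a threshold of 0.05). Over all tested genes, 1.45% passed in either direction (1.12% higher and 0.336% lower in KO lungs), so a count of 0 among 10 is near the background. At an unadjusted p under 0.05, 2 of the 10 (Lgals9 and Tigit) were higher in KO lungs and 0 lower, against 14.6% of all genes in either direction and 8.29% higher. DESeq2 called 1 of the 10, Lgals9, where it called 3.95% of all genes, and limma-voom called 0, where it called 1.12%. Lgals9 was also the 1 gene called in edgeR without the filter on low counts (3.69% of all genes). No gene of the set passed with other scalings (1.45%, 1.39% and 1.51% of all genes), with a filter at 1 CPM (1.57%), without the robust option (1.51%) or with the replicate number as a block (2.67%). None passed without KO library 1, 2 or 3 (3.69%, 0.16% and 0.258% of all genes) or without WT library 1, 2 or 3 (0.21%, 0.153% and 1.42%). The KO libraries lay wholly above the WT libraries for 3 of the 10 (Lgals9, Tigit and Btla), where 19.7% of all tested genes did not overlap in either direction 10.3% with KO above and 9.4% with KO below. The log2 difference, KO minus WT, was positive for 9 of the 10 and for 51% of all genes, and its median was 0.37 over the 10 and 0.01 over all tested genes. The median over the 10 was 0.21 without KO library 2, 0.22 without WT library 2 and 0.48 without KO library 1. The choice of the 10 was made with earlier results of these libraries known, so these counts describe the set and do not test it.

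**Figure D1:**
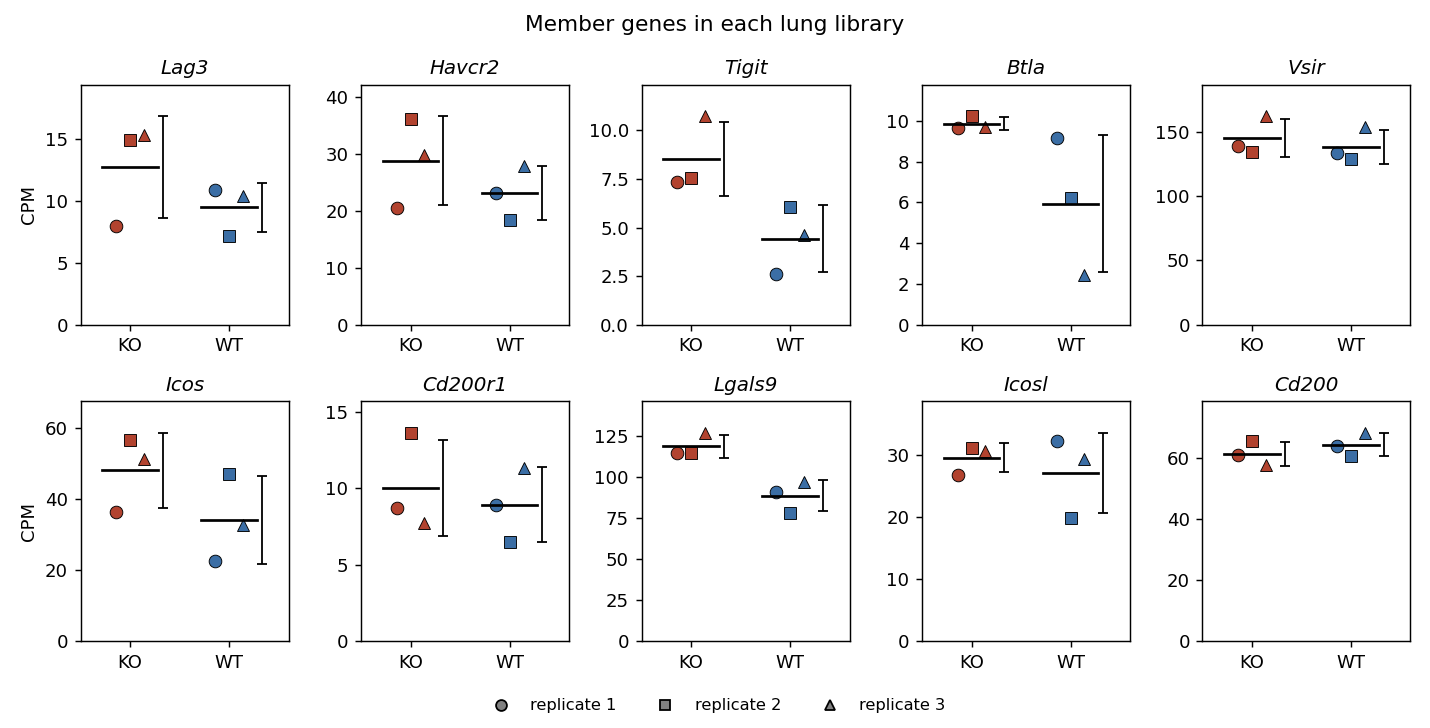
CPM of each of the 10 genes (vertical axes, linear from 0) in the 3 KO and the 3 WT libraries; symbols mark the replicate, black lines the mean and error bars the SD. Lgals9, Tigit and Btla show all KO points above all WT points, while the groups overlap for the other 7 genes.

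Levels were compared between genes only per exonic length, as TPM (counts divided by exonic length and scaled to 1 total in every library). Lgals9 stood first in both groups at 189.9 ± 7.62 TPM in KO lungs and 152.0 ± 11.1 TPM in WT lungs (SD, n = 3 each), above 93.8% of tested genes when averaged over all libraries. Vsir followed at 98.96 ± 8.36 TPM in KO and 101.3 ± 7.14 TPM in WT lungs, and Cd200 at 63.2 ± 4.76 TPM in KO and 70.9 ± 2.17 TPM in WT lungs. The ranges of these 3 genes did not touch each other, or that of the next gene, in either group. Below them the order was not resolved at every step. In KO lungs the ranges of Icos (47.8 ± 9.83 TPM) and Havcr2 (36.1 ± 9.44 TPM) overlapped, as did those of Havcr2 and Tigit (31.7 ± 6.35 TPM). In WT lungs Icos (36.7 ± 14.5 TPM) overlapped Havcr2 (31.1 ± 5.37 TPM), and Tigit (17.8 ± 7.44 TPM) overlapped both of its neighbours in the order, Icosl and Lag3. Cd200r1 and Btla were lowest in both groups, at 10.2 ± 3.24 and 9.93 ± 0.375 TPM in KO lungs and at 9.72 ± 2.37 and 6.43 ± 3.62 TPM in WT lungs. The set thus joined 3 well expressed genes to 7 that lay between 31.7% and 72.3% of the way up the tested genes.

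**Figure D2:**
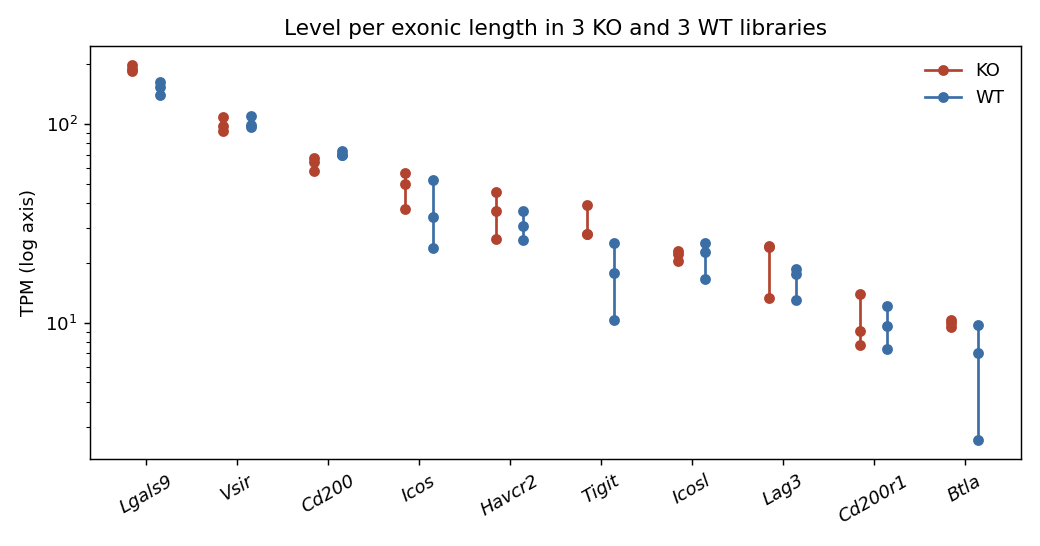
TPM on a log axis for the 10 genes in the order of their KO means; each line joins the lowest, median and highest of 3 libraries, KO left of WT. Lgals9, Vsir and Cd200 stand apart from each other and from the rest in both groups, and Btla in WT lungs has the widest range, 2.56 to 9.74 TPM.

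Lgals9 (chromosome 11, 78962974 to 78984946, minus strand, GRCm38) encodes galectin-9, a sugar-binding ligand of TIM-3 and a gene that interferons are known to induce. It had 114.5, 114.9 and 126.9 CPM in KO libraries 1 to 3, against 91.0, 78.3 and 96.8 CPM in WT libraries 1 to 3. The lowest KO library was above the highest WT library. Its log2 difference of 0.42 ± 0.11 (SE, 95% interval 0.18 to 0.66) had the smallest p of the 10, but did not pass over all genes (edgeR adjusted p = 0.0880). It passed under DESeq2 (adjusted p = 0.0338) and in edgeR without the filter on low counts (adjusted p = 0.0373), and with any 1 library left out its adjusted p was 0.0665 to 0.284. Of the 10 genes, 7 had a RefSeq promoter entry (GRCm38.p6, 300 bases each, of which 50 follow the transcription start). These entries are the C57BL/6J reference and not Balb/c sequence. Each was searched on both strands for GAAA, any 2 bases and GAAA again, the core of the interferon-stimulated response element, and for TTCNNNGAA, the core of the gamma-activated site. The first was found in Lgals9 alone among the 7 and in 3.44% of all 32851 promoter entries, and the second in 0 of the 7 and in 8.30% of all entries. In Lgals9 the first occurs 2 times on the opposite strand, at positions -55 to -46 from the start as TTTCTTTTTC and at positions 16 to 25 after it as TTTCTGTTTC. A match of letters shows no binding, and no match says only that these letters are not in the window. The upstream stretches of the 3 genes whose groups did not overlap are shown, 250 bases each and read 5′ to 3′ in the direction of the gene, with the matched letters in capitals. They lie at chr11:78984925-78985174 (minus strand) for Lgals9, chr16:43664185-43664434 (minus strand) for Tigit and chr16:45224087-45224336 (plus strand) for Btla.
Lgals9: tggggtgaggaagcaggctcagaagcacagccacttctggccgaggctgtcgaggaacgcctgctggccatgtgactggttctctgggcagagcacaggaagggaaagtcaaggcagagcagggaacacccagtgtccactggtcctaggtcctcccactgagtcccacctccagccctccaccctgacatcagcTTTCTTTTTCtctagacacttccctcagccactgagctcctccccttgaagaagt
Tigit: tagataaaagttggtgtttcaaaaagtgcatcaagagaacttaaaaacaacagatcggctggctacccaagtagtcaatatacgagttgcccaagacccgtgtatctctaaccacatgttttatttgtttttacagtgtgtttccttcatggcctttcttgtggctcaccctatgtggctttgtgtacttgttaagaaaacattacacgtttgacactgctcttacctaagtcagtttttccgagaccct
Btla: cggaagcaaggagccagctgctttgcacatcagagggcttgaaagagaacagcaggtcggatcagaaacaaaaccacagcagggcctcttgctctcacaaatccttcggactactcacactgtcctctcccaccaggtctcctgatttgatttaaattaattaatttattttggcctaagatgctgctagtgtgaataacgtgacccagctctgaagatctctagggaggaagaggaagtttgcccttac

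Tigit (chromosome 16, 43648867 to 43664146) encodes an inhibitory receptor of T and NK cells. It had 7.34, 7.54 and 10.7 CPM in the KO libraries, against 2.61, 6.05 and 4.59 CPM in the WT libraries, or 114, 115 and 176 counts against 38, 103 and 70 counts. All KO libraries were above all WT libraries, with WT library 2 closest to them. The log2 difference of 0.94 ± 0.34 was the largest of the 10 and its 95% interval ran from 0.22 to 1.67 (edgeR adjusted p = 0.200). Without WT library 1 it was 0.68 and without WT library 2 it was 1.24. Btla (chromosome 16, 45224315 to 45257670), an inhibitory receptor of B and T cells, had 9.65, 10.2 and 9.69 CPM in KO libraries and 9.14, 6.22 and 2.43 CPM in WT libraries. The KO libraries were close together, and WT library 1 lay just under them. Its log2 difference was 0.73 ± 0.37 (interval -0.06 to 1.53, adjusted p = 0.385), which became 0.36 without WT library 3 and 1.18 without WT library 1, so that single WT libraries set its size.

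Lag3 (chromosome 6, 124904361 to 124911705) encodes the MHC class II receptor LAG-3. It had 7.98, 14.9 and 15.3 CPM in the KO libraries, against 10.9, 7.16 and 10.4 CPM in the WT libraries. KO library 1 was below 2 of the WT libraries, so the groups overlapped, and the log2 difference was 0.43 ± 0.28 (interval -0.17 to 1.03, adjusted p = 0.524). It was 0.67 without KO library 1, 0.27 without KO library 3 and 0.26 without WT library 2. Havcr2 (chromosome 11, 46454935 to 46481255) encodes TIM-3, found on exhausted T cells and on myeloid cells. It had 20.5, 36.1 and 29.8 CPM in the KO libraries and 23.2, 18.4 and 27.9 CPM in the WT libraries. Here too KO library 1 fell among the WT libraries, and the log2 difference was 0.31 ± 0.21 (interval -0.14 to 0.77, adjusted p = 0.543). It was 0.12 without KO library 2, 0.17 without WT library 2, 0.51 without KO library 1 and 0.47 without WT library 3. Without KO library 1, none of the 10 genes passed either, though the share of all tested genes that passed rose from 1.45% to 3.69%.

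Vsir (chromosome 10, 60346851 to 60372684), the gene for VISTA, had 139.0, 134.5 and 162.2 CPM in KO libraries and 133.5, 128.7 and 153.6 CPM in WT libraries. The groups were interleaved, and the log2 difference of 0.07 ± 0.11 had a 95% interval of -0.18 to 0.31 (adjusted p = 0.844). Vsir lies inside the span of Cdh23 on the opposite strand, with 0 shared exonic bases. Cd200r1 (chromosome 16, 44765736 to 44794978), the inhibitory CD200 receptor of myeloid cells, had 8.69, 13.6 and 7.74 CPM in KO libraries and 8.94, 6.46 and 11.4 CPM in WT libraries. The ranges overlapped, with the highest value in KO and the lowest in WT, and the log2 difference was 0.17 ± 0.29 (interval -0.45 to 0.79, adjusted p = 0.848). Related receptor genes lie close to Cd200r1, and reads shared with them may be split or lost.

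Icos (chromosome 1, 60977927 to 61000320), the inducible costimulator of activated T cells, had 36.3, 56.7 and 51.2 CPM in KO libraries and 22.5, 46.9 and 32.8 CPM in WT libraries. KO libraries 2 and 3 were the highest, but WT library 2 was above KO library 1. The log2 difference of 0.49 ± 0.24 (interval -0.03 to 1.02) did not pass (adjusted p = 0.369), and it was 0.27 without WT library 1 and 0.80 without WT library 2. Its ligand gene Icosl (chromosome 10, 78069302 to 78083913) had 26.9, 31.2 and 30.7 CPM in KO libraries and 32.3, 20.0 and 29.3 CPM in WT libraries. The WT libraries held both the highest and the lowest value, and the log2 difference was 0.12 ± 0.18 (interval -0.27 to 0.52, adjusted p = 0.821). Cd200 (chromosome 16, 45382135 to 45409053), the ligand of CD200R1, was the only one of the 10 with a negative log2 difference. It had 60.8, 65.6 and 57.7 CPM in KO libraries and 63.7, 60.7 and 68.2 CPM in WT libraries, with a log2 difference of -0.07 ± 0.12 (interval -0.32 to 0.18, adjusted p = 0.856). The intervals of Vsir, Icosl and Cd200 reached no higher than 0.52 and no lower than -0.32, while the upper bounds of the other 7 genes ran from 0.66 for Lgals9 to 1.67 for Tigit.

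**Figure D3:**
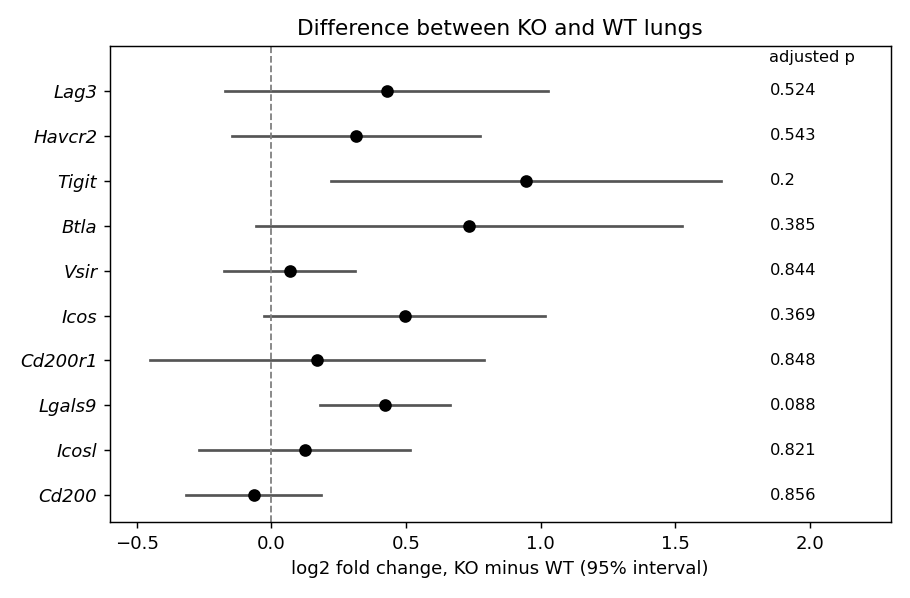
Log2 fold change, KO minus WT, of each gene (point) with its 95% interval (line) and the edgeR adjusted p over all 15191 tested genes; receptors are above and ligands below. Only the intervals of Tigit and Lgals9 stay clear of 0, and no adjusted p is under 0.05.

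Partner genes were taken from a list of 45 ligands, relatives, adaptors and TNF family costimulators, of which 44 had a row and 38 were tested. Of these, 2 rose and 0 fell, where 1.12% of all tested genes rose and 0.336% fell. Their median log2 difference was 0.24, against 0.01 over all tested genes, and 0.09 without WT library 1 or 0.37 without WT library 2. Both that rose encode MHC class II chains, the ligand of LAG-3. H2-Aa was at 77.6 ± 22.9 CPM in KO and 36.6 ± 5.55 CPM in WT lungs (log2 fold change 1.08 ± 0.19, edgeR adjusted p = 0.0158), and H2-Ab1 at 201.6 ± 70.3 CPM in KO and 90.3 ± 7.05 CPM in WT lungs (1.16 ± 0.22, adjusted p = 0.0363). All KO libraries were above all WT libraries for both. The call for H2-Aa was lost without KO library 2 or 3 or WT library 1 or 2, at adjusted p of 0.0945, 0.0707, 0.0955 and 0.107. That for H2-Ab1 was lost without the same libraries, at 0.164, 0.0509, 0.184 and 0.157, and also without WT library 3 (0.0824). Of all tested genes, 0.16% and 0.258% passed without KO library 2 or 3. The share was 0.21%, 0.153% and 1.42% without WT library 1, 2 or 3, against 1.45% with all libraries. In the runs that lost the call, the log2 difference was 0.85 to 1.08 for H2-Aa and 0.89 to 1.20 for H2-Ab1. Lgals3, a galectin that also binds LAG-3, was at 201.2 ± 40.1 CPM in KO and 134.9 ± 16.8 CPM in WT lungs and did not pass (adjusted p = 0.0651). It was named after its value was seen.

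In the other axes no partner passed. Of 5 tested TIM-3 partners and TIM family genes, the smallest p was that of Timd4, a phosphatidylserine receptor of macrophages, at 7.98 ± 4.09 CPM in KO and 2.96 ± 1.96 CPM in WT lungs (adjusted p = 0.178). Of 5 tested genes around TIGIT it was that of Nectin3, at 137.8 ± 6.77 CPM in KO and 158.7 ± 6.06 CPM in WT lungs (adjusted p = 0.365), with all KO libraries below all WT libraries. Cd226, the activating receptor that competes with TIGIT for its ligands, was at 6.35 ± 3.45 CPM in KO and 8.23 ± 0.414 CPM in WT lungs, and the ligand gene Pvr at 83.6 ± 10.5 CPM in KO and 77.3 ± 11.2 CPM in WT lungs. These 2 were chosen after their values were seen, as the best known partners of TIGIT. Of 4 tested BTLA partners, Cd160 had the smallest p (0.883 ± 0.300 CPM in KO and 0.313 ± 0.542 CPM in WT lungs, adjusted p = 0.636). Selplg, which encodes PSGL-1, a ligand of VISTA, was at 104.2 ± 13.8 CPM in KO and 83.4 ± 24.9 CPM in WT lungs (adjusted p = 0.494). Of 5 tested ICOS regulators and follicular helper genes, Cxcr5, the chemokine receptor of follicular cells, was at 31.4 ± 4.53 CPM in KO and 19.1 ± 3.47 CPM in WT lungs (adjusted p = 0.0749). Of 4 tested CD200 receptor family and adaptor genes, Dok1, an adaptor of inhibitory signalling, was at 24.5 ± 1.07 CPM in KO and 17.8 ± 2.62 CPM in WT lungs (adjusted p = 0.235). Of 9 tested TNF family costimulators, Tnfrsf4, the gene for OX40, was at 7.18 ± 2.65 CPM in KO and 3.61 ± 0.961 CPM in WT lungs (adjusted p = 0.198). Outside the LAG-3 list, edgeR thus called 0 partners, and 6 of 34 had an unadjusted p under 0.05, where 14.6% of all tested genes did. Over all partner lists, DESeq2, which called 3.95% of all genes, added Cxcr5 and Lgals3, and limma-voom, which called 1.12%, called H2-Aa alone.

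**Figure D4:**
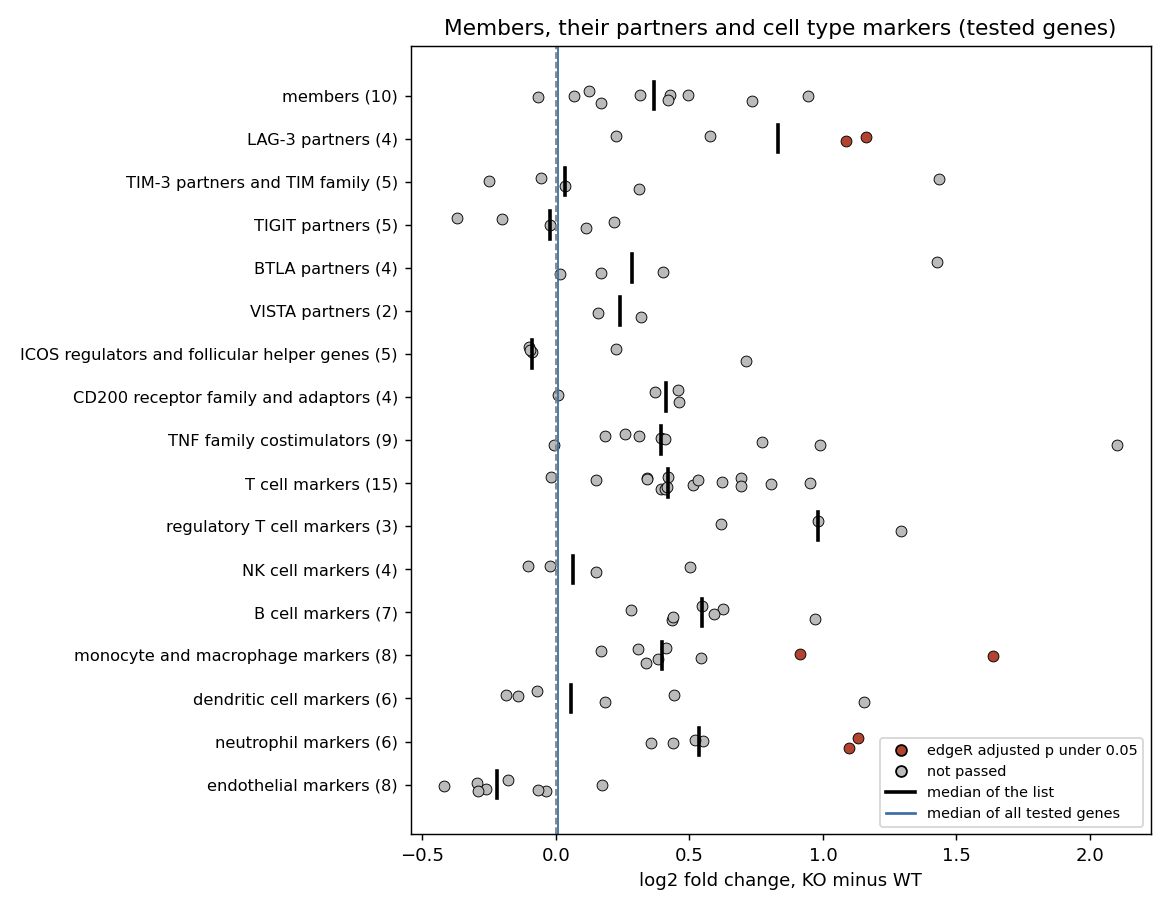
Log2 fold change, KO minus WT, of every tested gene in the 10-gene set, the 8 partner lists and the lymphoid, myeloid and endothelial marker lists (number tested in brackets); red points passed the edgeR test, black bars are list medians and the blue line is the median of all tested genes. The 2 partner genes that passed are both MHC class II genes.

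Because most of these receptors are made by T cells, the T cell markers of the same libraries are given beside them. Over all tested genes, 1.45% passed by edgeR, 3.95% by DESeq2 and 1.12% by limma-voom. By edgeR, 14.6% had an unadjusted p under 0.05 and 8.29% had one with KO higher. The edgeR share was 3.69%, 0.16% and 0.258% without KO library 1, 2 or 3. It was 0.21%, 0.153% and 1.42% without WT library 1, 2 or 3. Each marker count is to be read against the share of its own run. Of 15 T cell markers, 0 passed by edgeR, 7 had an unadjusted p under 0.05, all of them higher in KO lungs, and 14 had a positive log2 difference, with a median of 0.42. That median was 0.28 without WT library 1 and 0.76 without WT library 2, and 2 markers passed without KO library 1. DESeq2 called 3 of the 15 and limma-voom 0. Summed T cell markers ran from 324.8 to 456.3 CPM in KO and from 221.6 to 347.7 CPM in WT libraries, so the groups overlapped, and none of the 15 was at 0. The 3 regulatory T cell markers summed to 22.5 to 40.5 CPM in KO and 14.2 to 20.3 CPM in WT libraries without overlap, and 0 of the 3 passed by edgeR, DESeq2 or limma-voom, with 3 at an unadjusted p under 0.05. Taken singly, Foxp3 did not overlap between the groups, while Il2ra and Ikzf2 did. NK cell markers summed to 36.6 to 44.6 CPM in KO and 19.6 to 69.3 CPM in WT libraries, with 0 of 4 tested passing by any of these tools and 0 at an unadjusted p under 0.05. B cell markers, which belong to cells that also carry BTLA and ICOS ligand, summed to 182.2 to 248.4 CPM in KO and 111.5 to 182.4 CPM in WT libraries, with 0 of 7 passing by edgeR, 4 at an unadjusted p under 0.05 and 1 called by DESeq2. Monocyte and macrophage markers, of cells that carry TIM-3, VISTA and CD200R1, summed to 4938 to 5448 CPM in KO and 3642 to 4423 CPM in WT libraries. Most of this sum was 1 gene, Lyz2, at 4404 to 4883 CPM in KO and 3272 to 4015 CPM in WT libraries. For 5 of the 8 all KO libraries were above all WT libraries, as for 10.3% of all tested genes, while Cd68, Adgre1 and Itgam overlapped. By edgeR 2 of 8 rose, or 1 to 3 with 1 library left out (1 without KO library 2 or 3 or WT library 1 or 2, 3 without KO library 1). Endothelial markers, of cells that carry CD200, summed to 5385 to 6698 CPM in KO and 5803 to 7193 CPM in WT libraries, with 0 of 8 passing by edgeR, DESeq2 or limma-voom and 3 at an unadjusted p under 0.05, all of them lower in KO lungs. Dendritic cell markers summed to 94.1 to 110.4 CPM in KO and 82.6 to 104.2 CPM in WT libraries, with 0 of 6 passing by edgeR and 1 called by DESeq2. Red blood cell markers summed to 156.1 to 332.3 CPM in KO and 162.0 to 192.1 CPM in WT libraries. Without overlap, neutrophil markers summed to 325.0 to 497.8 CPM in KO and 167.3 to 279.7 CPM in WT libraries, and keratins, listed for tumour load, to 253.5 to 295.0 CPM in KO and 212.6 to 249.4 CPM in WT libraries. Of the neutrophil markers taken singly, S100a8 and S100a9 did not overlap between the groups, while Csf3r, Cxcr2, Mmp9 and Retnlg did. Lower in KO without overlap were the sums for smooth muscle and fibroblasts, 2011 to 2424 CPM in KO and 2798 to 2941 CPM in WT libraries, and for platelets, 13.3 to 25.3 CPM in KO and 46.7 to 71.5 CPM in WT libraries. Of these lists, 2 of 6 neutrophil markers rose, 2 of 7 smooth muscle and fibroblast markers fell and 1 of 5 platelet markers fell. Of 5 keratins 3 were tested, with 0 passing by edgeR, DESeq2 or limma-voom and 0 at an unadjusted p under 0.05. Their median log2 difference was 0.12, and host and tumour keratin RNA cannot be told apart. The neutrophil and the smooth muscle calls were both 0 without KO library 2 or 3 or WT library 1 or 2, and the platelet call became 2 without KO library 1. With 1 library left out, 1 regulatory T cell marker passed without KO library 1 (higher in KO), 1 B cell marker without KO library 2 (higher) and 1 endothelial marker without KO library 1 (lower). Also, 1 dendritic cell marker passed without KO library 1 (higher) and 1 lung epithelial marker without WT library 3 (higher). No marker on these lists was at 0 in all libraries. The part of these cell types in the levels of the 10 genes was not tested.

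Counts of each gene were then set against the summed counts of Cd3d, Cd3e and Cd3g, the CD3 chains of the T cell receptor complex, in the same library, which needs no scaling between libraries. CD3 genes together had 888, 1171 and 1233 counts in KO libraries 1 to 3, against 626, 995 and 735 counts in WT libraries 1 to 3. As CPM these sums were 57.2, 76.7 and 75.2 in KO and 43.0, 58.4 and 48.2 in WT libraries. All genes of a library are divided by the same sum, so a higher CD3 sum lowers every ratio alike. A fall from the difference in CPM, or a negative value, is thus not particular to a gene. The log2 differences in CPM of the chains were unlike, at 0.15 for Cd3d, 0.34 for Cd3e and 0.80 for Cd3g. Single chains were not used as the denominator. Per 100 CD3 counts, Icos had 63.5, 73.9 and 68.1 counts in KO libraries and 52.2, 80.3 and 67.9 counts in WT libraries. The means were 68.5 ± 5.19 in KO and 66.8 ± 14.1 in WT lungs, a log2 difference of 0.05 where the difference in CPM had been 0.49. Lag3 had 13.96, 19.4 and 20.4 counts per 100 CD3 counts in KO libraries and 25.2, 12.3 and 21.5 in WT libraries, a log2 difference of -0.09. Havcr2 had 35.9, 47.1 and 39.6 in KO libraries and 53.8, 31.6 and 57.8 in WT libraries, a log2 difference of -0.19. Against CD3 these 3 receptors were interleaved between the groups. With 1 library left out, Lag3 ran from -0.40 (without WT library 2) to 0.12 (without WT library 1), Icos from -0.11 (without WT library 1) to 0.20 (without WT library 2) and Havcr2 from -0.46 (without WT library 2) to -0.022 (without WT library 3).

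Tigit kept the largest positive log2 difference against CD3, 0.52, with 12.8, 9.82 and 14.3 counts per 100 CD3 counts in KO libraries and 6.07, 10.4 and 9.52 in WT libraries. WT library 2 stood above KO library 2. Btla followed at 0.44, with 14.4 ± 2.19 in KO and 12.3 ± 8.23 in WT lungs, and turned to -0.078 without WT library 3. Lgals9, at -0.06, ran from -0.26 without WT library 2 to 0.067 without WT library 1. The lowest log2 differences were those of Cd200 (-0.55) and Vsir (-0.41), followed by Icosl (-0.33) and Cd200r1 (-0.32). In CPM, before division by the CD3 sum, they were -0.07, 0.07, 0.12 and 0.17 in the same order. The part of cells other than T cells in the values against CD3 was not tested. The groups overlapped for all 10 genes, where 31.8% of all tested genes did not overlap on this scale, and the two-sided exact permutation p ran from 0.200 to 0.800, with 0.10 the smallest that 3 against 3 allows. Single libraries decided this. Without WT library 2, which had the most CD3 counts of its group, 8 of the 10 did not overlap (Tigit higher in KO, and Lag3, Havcr2, Lgals9, Vsir, Icosl, Cd200 and Cd200r1 lower), against 62.2% of all tested genes. Without KO library 1 it was 2 (Vsir and Cd200, lower in KO, against 61.9%), without KO library 2 it was 1 (Tigit, higher, 34.3%) and without WT library 1 it was 1 (Btla, higher, 35.6%). Without KO library 3 or WT library 3 it was 0 (34.7% and 38.1%). With all 15 T cell markers as the denominator, 1 gene, Tigit, did not overlap (exact permutation p = 0.10), against 27.5% of all tested genes.

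**Figure D5:**
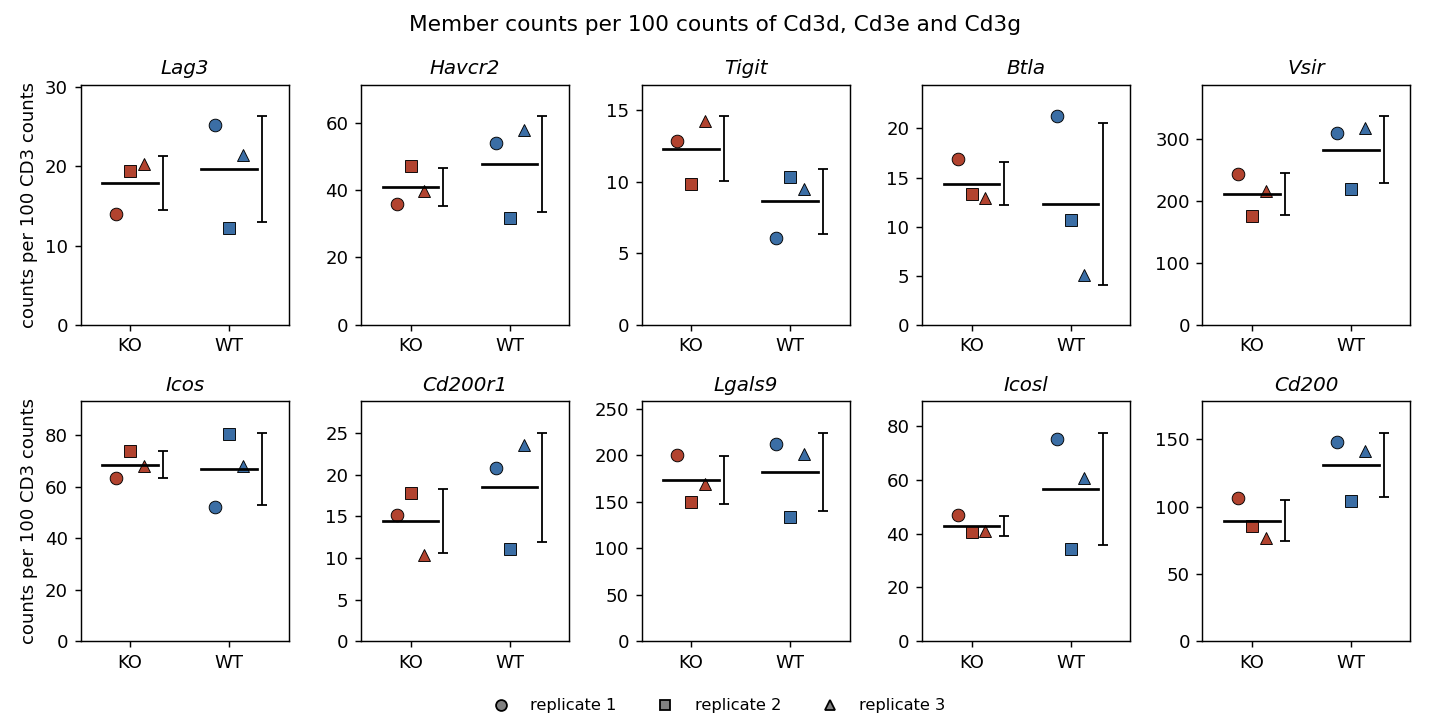
Counts of each gene per 100 counts of Cd3d, Cd3e and Cd3g in the same library (vertical axes, linear from 0), KO left of WT; symbols mark the replicate, black lines the mean and error bars the SD. WT replicate 2 (square) sits apart from the other WT points for most genes, and the groups overlap in every panel.

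The genes with the most similar profile over the 6 libraries were sought among 10345 tested genes, as the root mean square difference of log2(CPM + 1) after centring each gene on its mean. This describes shape in these libraries, including the difference between groups, and has no test. For Icos the closest were Mxd1 (0.11) and Cd4 (0.14), the co-receptor gene of helper T cells. For Havcr2 they were Tlr13 (0.07), an endosomal RNA sensor of mouse myeloid cells, and Yif1b (0.07). For Cd200r1 they were Sirpa (0.10), another inhibitory receptor of myeloid cells, and L3mbtl2 (0.10). For Tigit they were Lst1 (0.16) and Tmem173 (0.16), the gene for STING. For Btla no gene came closer than 0.24 (Ermard and Gtf2h3), the widest gap of the 10. For Lgals9 they were Eif5a and Carmil2 (0.03 each), for Lag3 Haus8 (0.08) and Haus7 (0.09), for Vsir Pgam1 (0.03) and Kat2a (0.04), for Icosl Agpat4 (0.04) and Ahsa1 (0.06), and for Cd200 Trpc4ap (0.02) and Polr2m (0.03).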

How the data were processed

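Whole-lung RNA was sequenced in 6 libraries. The deposited values are whole-number counts per Ensembl gene, 1 table per library. The authors used STAR 2.5 for alignment (build mm10, which is GRCm38) and HTSeq 0.6.1 for counting, according to the design text and the submitters' processing notes. Annotation release, strand setting and counting mode: not given in the sources used here. Symbols, coordinates (from 1) and exonic lengths came from GENCODE M21 (34490 of 35275 identifiers matched, and 0 rows named no gene).

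Counts were tested with edgeR 4.0.16 (R 4.3.3; TMM, filterByExpr with a minimum count of 10, glmQLFit with robust=TRUE, group alone), as KO minus WT. SE is the fold change over the square root of F, and 95% intervals use the total degrees of freedom. CPM uses TMM-scaled library sizes. TPM divides counts by union exonic length. The CD3 ratio added 0.5 to each member count on the log2 scale. No 2 libraries were identical. The 95% intervals include the spread between libraries, while the floors for a count of 0 cover counting error only. The procedure was tested on simulated counts.

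The genes, lists and tests were chosen with earlier results of these data known. Named were all members, the partner with the smallest p in each list and any that passed, and the 2 nearest profiles among named genes other than Gm, Rik and pseudogene symbols at a mean log2 CPM of at least 3. Alternatives were other scalings, filters and thresholds, DESeq2 1.42.0, limma-voom (limma 3.58.1), robust=FALSE, leaving out each library and the replicate number as a block.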

Additional observations from a re-analysis of the deposited data

How the results depend on the processing

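None of the 10 genes was called lower in KO lungs under any alternative run. The number called higher was 0 by edgeR and became 1, Lgals9, with DESeq2, with no filter beyond 1 count and at a threshold of 0.1, while leaving out any 1 library gave 0. Over all genes, 170 were higher and 51 lower, which became 578 and 225 with no filter, 370 and 230 with DESeq2, 315 and 160 at a threshold of 0.1, and 22 to 404 and 2 to 174 with 1 library left out. Partner genes called were 2, and 5 with no filter, 4 with DESeq2, 1 with limma-voom and 0 to 5 with 1 library left out. Against CD3, the number of genes whose groups did not overlap was 0, 1 with all T cell markers and 0 to 8 with 1 library left out. In CPM without length, 2 of the 10 genes kept their place in the order of levels in KO lungs, and the WT order was not compared. Of the log2 differences under an alternative, 144 kept direction and side of the threshold, 2 (Lgals9) passed it and 4 changed sign. With 1 library left out, Vsir ran from -0.023 (without KO library 3) to 0.15, Icosl from -0.060 (without WT library 2) to 0.26 and Cd200r1 from -0.12 (without KO library 2; -0.02 without WT library 2) to 0.38, and none of these was called. The cause of these changes was not tested. At 37 to 251 counts a library, Lag3, Tigit, Btla and Cd200r1 carry the widest intervals.

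The labels do not pair the libraries. Deviations of same-numbered libraries from their group means correlated at 0.05, 0.02 and 0.03, and KO library 2 did not correlate best with its own number. With the replicate number as a block, 309 genes were higher and 96 lower, and 0 of the 10 genes was called.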
